A study of Homo sapiens with 2 samples.

Results

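The peaks described here are the regions of enriched N6-methyladenosine (m6A) signal that the authors' peak list places in a 3' UTR, the stretch of an mRNA between the stop codon and the poly(A) tail. Members were all rows of that list with the 3' UTR as their region, with no limit on fold or p, and they numbered 24488 of 49746 peaks (49.2%, exact 95% interval 48.8 to 49.7%), in 10919 genes. The cells were Huh-7, an established human hepatocellular carcinoma line, of wild-type genotype and with no treatment. Fragmented RNA, cleared of ribosomal RNA, gave 1 library of fragments bound by an antibody to m6A (the IP) and 1 library of fragments that were not selected (the input). Both libraries came from the same untreated line, so the comparison is of IP with input and of peaks with each other. With 1 library of each kind there is no replicate error, no test was made, and the intervals given cover counting error only.

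m6A is a methyl group placed on adenosines of mRNA by a nuclear writer complex built around METTL3 and METTL14. Reader proteins of the YTH family bind it, and in the cytoplasm this is known to shorten the life of many mRNAs, while the IGF2BP proteins are known to stabilise some of them. In mammalian mRNA the mark is known to gather around the stop codon and in the 3' UTR, which also holds the sites of microRNAs, of AU-rich element binding proteins and of the poly(A) machinery.

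The fold of each peak is the authors' own value of IP over input, given here as log2 or as a plain fold, and it describes and ranks peaks within this list only. The level of a gene is its FPKM in the input, its fragments scaled to transcript length and library size. The read depth of either library is unknown. Input RNA held 6 of 6 hepatocyte markers, between 55.1 FPKM (HNF4A) and 2380 FPKM (AFP). The extraction protocol speaks of adipose RNA, but of 4 adipocyte markers only PLIN1 was listed, at 0.0690 FPKM, and ADIPOQ, FABP4 and LEP were not listed. Of 4 leukocyte markers LYZ stood at 83.8 FPKM and CD14 at 1.72, with PTPRC and CD3E not listed. Of 4 endothelial markers only PECAM1 was listed, at 1.33 FPKM, and 4 fibroblast markers lay between 0.0373 and 1.46 FPKM. Their part in the peaks was not tested.

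The typical 3' UTR peak was enriched about as much as the typical peak of the whole list. The median fold was 2.09 (log2 1.06), with quartiles at log2 0.71 and 1.73 and a range from 0.25 to 8.74. A fold of 2 or more was given for 13218 peaks (54.0%, against 56.4% of all listed peaks), and 4-fold or more for 20.1% (against 19.7%). An adjusted p under 0.001 was given for 11898 (48.6%, against 44.1%), and 8473 (34.6%, against 31.5%) met this limit and 2-fold together. Peaks in coding exons had a median log2 fold of 0.88 (10286 peaks) and peaks in 5' UTRs one of 1.21 (6118 peaks).

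The authors' list names the class of transcript behind each peak, and a minority of 3' UTR peaks were listed under a class other than protein-coding. Whether such a peak also lies in the 3' UTR of a protein-coding transcript was not measured. Of the 24488 peaks, 18237 (74.5%) were listed under a protein-coding transcript and 6247 under a nonsense-mediated decay transcript, whose early stop codon can make exons of the normal coding region count as 3' UTR. The others were 3 peaks of polymorphic pseudogenes and 1 of an immunoglobulin constant gene. Peaks of both classes had like folds, with a median log2 of 1.08 for protein-coding and 1.00 for nonsense-mediated decay transcripts. Of the host genes, 7410 had 3' UTR peaks of the protein-coding class alone, 1936 of both classes and 1569 (14.4%) of the decay class alone.

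Peaks in 3' UTRs crowded at the end of the gene. Each peak's midpoint was placed along the span of its gene, from 5' to 3' with introns included. The median midpoint lay at 92.9% of the span (quartiles 76.4 and 98.0%), and 57.2% of the peaks lay in the last 10%. Only 12.3% of coding exon peaks and 0.866% of 5' UTR peaks lay in that last 10%. A 3' UTR lies toward the gene end by its definition. The order of the regions is thus largely set by the annotation, and nothing is read from it. The 2 transcript classes differed in position, since 65.3% of peaks listed under a protein-coding transcript lay in the last 10% and 33.7% of those listed under a decay transcript. Before the middle of the span lay 7.73% of the former and 18.9% of the latter.

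**Figure D1:**
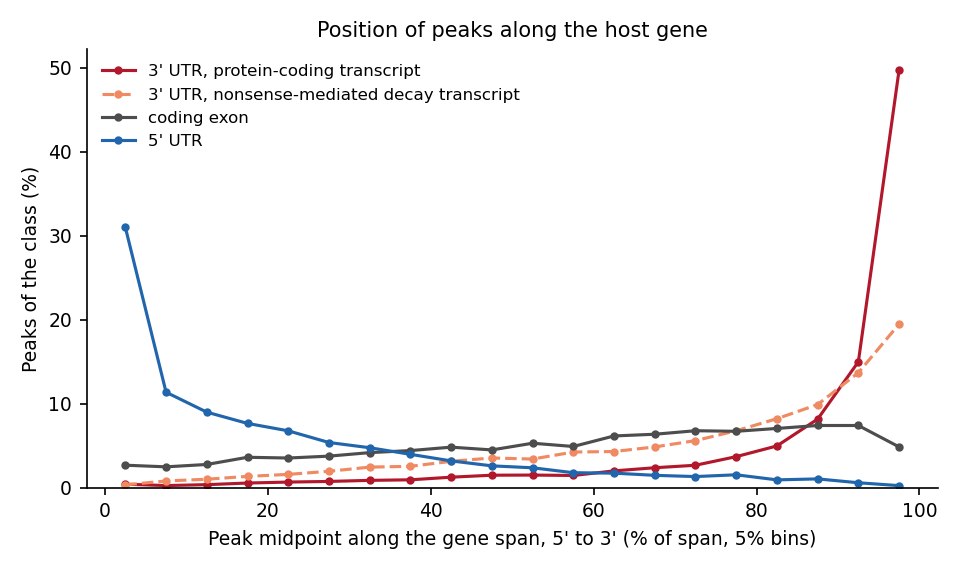
Share of peaks (percent of each class, y axis) by the position of the peak's midpoint along the gene span (x axis, in bins of 5% of the span, 5' to 3'), for 3' UTR peaks of 2 transcript classes, coding exon peaks and 5' UTR peaks. The curve for 3' UTR peaks of protein-coding transcripts climbs in the last bins, that for decay transcripts is flatter, and the 5' UTR curve is highest at the left. The order of the regions is largely set by the annotation.

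In nucleotides, the downstream edge of a 3' UTR peak lay a median of 1900 nt before the listed gene end (quartiles 450 and 6188 nt, introns included). The median was 1428 nt for the protein-coding class and 5367 nt for the decay class. In the last 2000 nt before the gene end finished 50.2% of all 3' UTR peaks. On the very last base of the gene ended 2406 peaks (9.83%), 240 (0.980%) ran past it, and 4500 (18.4%) ended more than 10000 nt before it. In longer genes the peaks lay closer to the end as a share of the span and farther from it in nt. The peaks were divided into 4 equal parts by the span of their gene. In the part with the shortest genes (median span 11116 nt) 39.9% lay in the last 10% of the span, at a median of 700 nt from the end. In the part with the longest genes (median span 166001 nt) these values were 70.7% and 3475 nt.

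The width of a 3' UTR peak had a median of 525 nt from first to last base (quartiles 275 and 1554 nt), against 1758 nt in coding exons and 1376 nt in 5' UTRs. The range ran from 100 to 383116 nt, so some listed widths take in introns. How much of a peak lies within the 3' UTR was not measured, and a listed peak may also cover other parts of its gene. Multiples of 25 nt were favoured among the widths. Of 3' UTR peaks 16774 (68.5%) had a width that is a multiple of 25 nt, against 33.0% in coding exons, 34.1% in 5' UTRs and 89.6% in introns. Each of the other 24 possible remainders held between 280 and 367 of the 3' UTR peaks. Peaks on the step had a median width of 375 nt and peaks off it one of 2942 nt, and 1185 of the 7714 off the step ended on the gene's last base. By transcript class, 78.1% of peaks under protein-coding transcripts were on the step, with a median width of 450 nt over all of that class. Of peaks under decay transcripts 40.3% were on the step, and that class had a median width of 1225 nt.

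Peaks of 100 nt, the narrowest listed, were also the most frequent single width, with 1307 peaks. The counts declined to 454 peaks at 300 nt, stood at 471 and 462 at 325 and 350 nt, rose to 1023 at 375 nt, and declined again from 729 at 400 nt. The cause of the rise at 375 nt was not tested.

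Among peaks on the 25 nt step, the median fold was higher in wider classes between 425 and 2000 nt. The median log2 fold was 0.78 in the 1307 peaks of 100 nt, 0.86 at 325 to 400 nt, 0.98 at 425 to 500 nt, 1.25 at 525 to 750 nt, and 2.36 in the 1360 peaks of 1025 to 2000 nt. In the 433 wider ones it was 2.32. Of the peaks of 100 nt 6.96% had an adjusted p under 0.001, of those of 425 to 500 nt 52.2%, of those of 1025 to 2000 nt 98.5%, and of the wider ones 81.3%. The median level of the host genes moved little over these classes, between 4.04 and 5.99 FPKM. Across peaks on the step, width and log2 fold had a Spearman correlation of 0.46 (16774 peaks), level and log2 fold one of −0.52 (16602 peaks with a host level), and level and width one of −0.10. These are descriptions across peaks of 1 pair of libraries. Peaks share host genes, and width, fold and level come from the same reads.

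**Figure D2:**
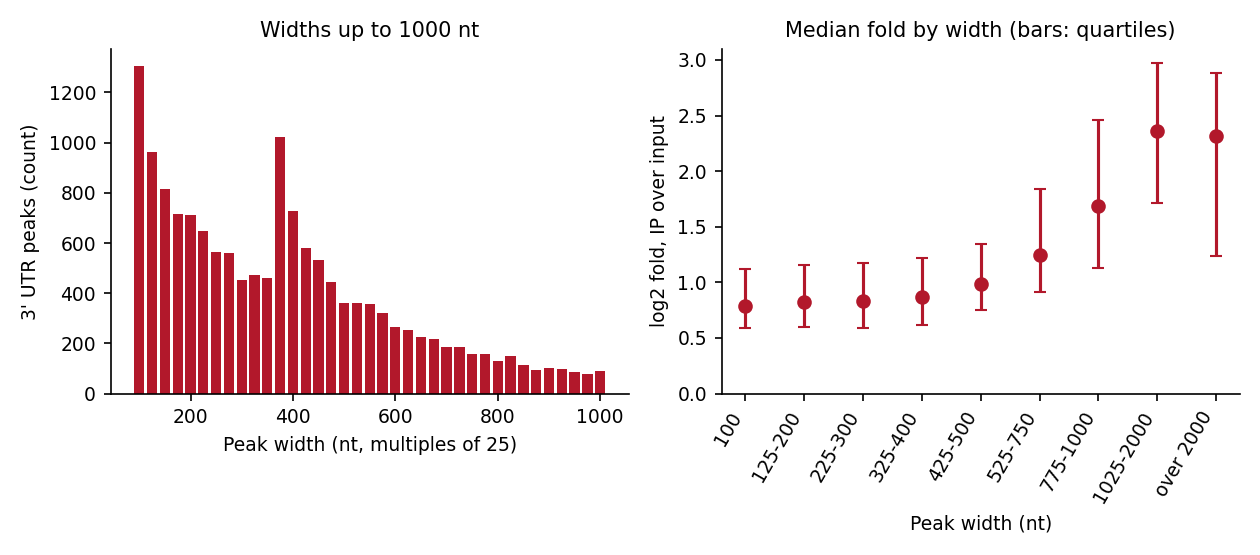
Left, the number of 3' UTR peaks (y axis) at each width that is a multiple of 25 nt, up to 1000 nt (x axis), with its tallest bars at 100 and 375 nt. Right, the median log2 fold of IP over input (points, with bars for the quartiles) by width class in nt for peaks on the 25 nt step, from 0.78 at 100 nt to 2.36 at 1025 to 2000 nt.

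A host gene had a median of 2 and a mean of 2.24 peaks in its 3' UTR. A single peak was listed in 4854 genes (44.5%), 3 or more in 3415 (31.3%), 5 or more in 1003 (9.19%) and 10 or more in 51. The 1003 genes with 5 or more held 25.5% of the 3' UTR peaks. Genes with more peaks were longer and somewhat more abundant. From genes with 1 peak to genes with 6 or more, the median span went from 23746 to 79844 nt and the median level from 3.90 to 5.67 FPKM. Over the same classes the median log2 fold of the strongest 3' UTR peak went from 1.55 to 1.93, and the share of genes with a peak under a decay transcript from 18.0 to 62.2%. Both measures can be higher merely because more peaks are counted per gene, and nothing is read from them. Neighbouring 3' UTR peaks of 1 gene (13569 pairs) lay a median of 625 nt apart (quartiles 175 and 1899 nt), 61.5% of them within 1000 nt, and 69 pairs overlapped.

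**Figure D3:**
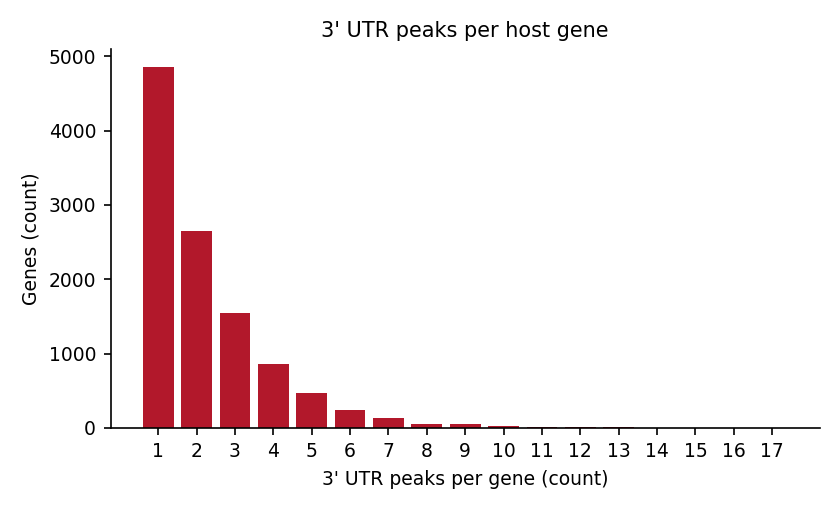
Number of host genes (y axis) by their count of 3' UTR peaks (x axis, 1 to 17). The bar for 1 peak holds 4854 genes and the bars shrink toward the right.

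By all listed peaks the highest counts were those of HNRNPU with 17 and CCDC88A with 16. With peaks that overlap the other strand set aside, both had 14 and MBNL3 led with 15. HNRNPU encodes a nuclear RNA-binding scaffold protein, and 10 of its peaks were listed under decay transcripts, with log2 folds from 0.36 to 1.36. In CCDC88A, which encodes the actin-binding protein girdin, 11 of the 16 peaks were under decay transcripts. MBNL3 encodes a splicing regulator of the muscleblind family, and each of its peaks was under a protein-coding transcript. They began with a downstream edge 10000 nt before the gene end and finished on its last base. Of these 15 the last was the strongest, with a log2 fold of 2.84 (adjusted p 2.61e-12) and a width of 475 nt on chromosome X from 132369317 to 132369791, while the first had 0.45 and 13 of the others lay between 0.35 and 1.26. SMAD2, which carries TGF-beta signals to the nucleus, had 13 peaks, also under protein-coding transcripts. Its most upstream peak had a log2 fold of 2.29 (adjusted p 1.51e-53) over 3711 nt, and its highest fold, log2 6.58, was that of a 275 nt peak with an adjusted p of only 0.00206. SPG7, a mitochondrial protease subunit, and SYNE2, which links the nuclear envelope to the cytoskeleton, had 14 peaks each, of which 12 were under decay transcripts in either gene. BRAF, a kinase of the MAPK pathway, GOLGB1, a Golgi tether, NF1, a brake on RAS, and NSD2, a histone methyltransferase, had 13 each, with 2, 11, 11 and 6 under decay transcripts.

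Within a gene the most upstream 3' UTR peak was the strongest more often than the most downstream one. Of 2190 genes with 2 peaks under protein-coding transcripts, the upstream one had the higher fold in 57.6% (55.5 to 59.7%). Of 2247 genes with 3 or more, the strongest was the most upstream in 42.9% (40.8 to 45.0%) and the most downstream in 28.9% (27.0 to 30.8%). RBM15B, a subunit of the writer complex, had its strongest of 5 peaks farthest upstream, with log2 2.62 over 2975 nt, and the other 4 lay between 0.62 and 0.99. That strongest peak had its midpoint at 37.9% of the gene span, and how much of it lies in the 3' UTR was not measured. MBNL3 showed the opposite order.

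Where a gene had peaks in its 3' UTR and in coding exons, the 3' UTR more often held the stronger one. This was so in 3275 of 4679 genes (70.0%, 68.7 to 71.3%), and the median of the difference, 3' UTR minus coding exon, was 0.36 on the log2 scale. The choice of the strongest favours the region with more peaks, so genes with 1 peak of each were also compared. Among 1176 such genes the share was 66.5% (63.7 to 69.2%). Among 1575 genes with peaks of both regions on the 25 nt step it was 68.4% (66.0 to 70.7%), with a median difference of 0.28. Over pooled peaks the picture was less even, since the median log2 fold of 3' UTR peaks was 0.18 above that of coding exon peaks, but 0.02 above it with widths on the step alone. Against 5' UTR peaks of the same gene, 3' UTR peaks were the stronger in 60.4% of 4271 genes (58.9 to 61.9%), in 56.6% of the 1411 with 1 of each (54.0 to 59.2%) and in 54.9% of the 1276 on the step (52.1 to 57.6%). Neither comparison was limited to protein-coding transcripts. Decay transcripts, which held 25.5% of the 3' UTR peaks, can make exons of the normal coding region count as 3' UTR.

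Most expressed coding genes had a 3' UTR peak. Of 10549 coding genes at 1 FPKM or more, 9279 (88.0%, 87.3 to 88.6%) had one, against 46.2% with a coding exon peak and 42.4% with a 5' UTR peak. Counting only peaks of at least 2-fold with an adjusted p under 0.001, called the strict limit here, the share was 55.4%. With 3' UTR peaks under protein-coding transcripts alone it was 76.5%. A 3' UTR peak of 4-fold or more was listed in 3258 (30.9%), and the strongest 3' UTR peak of a host had a median log2 fold of 1.52. In 27.6% of these coding genes the 3' UTR held a peak and neither of the other regions did, in 18.4% each of the 3 regions did, and in 4.20% none did. A peak in any region was listed in 96.2% of these coding genes. Of the 1270 genes without a 3' UTR peak, 870 (68.5%) had a peak elsewhere. Genes with a 3' UTR peak were longer, with a median span of 35187 nt against 16360 nt. Their median level of 5.62 FPKM was close to the 5.13 FPKM of genes without, a log2 difference of 0.13. That difference turned to −0.47 when the minimum was 5 FPKM and to −0.45 when a peak counted only at an adjusted p under 0.001 and at least 2-fold.

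A 3' UTR is defined by a coding sequence, so the annotation itself keeps these peaks to coding genes with few exceptions. At 1 FPKM or more, 7 of 430 long non-coding RNA genes, 1 of 731 pseudogenes, 0 of 206 microRNA genes and 0 of 168 snoRNA genes hosted one. Among transcribed pseudogenes, a class counted apart, 7 of 234 did, and among genes matched to no class 31 of 1237.

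The share of coding genes with a 3' UTR peak rose and then fell with level, while strong peaks thinned out toward high levels. By decile of level, the share was 81.3% (78.8 to 83.6%) in the lowest (median 1.32 FPKM), 92.1% (90.3 to 93.7%) in decile 7 and 79.5% (76.9 to 81.9%) in the highest (median 39.1 FPKM). A peak of 4-fold or more was listed in 41.7% (38.7 to 44.7%) of the lowest decile and in 10.1% (8.3 to 12%) of the highest. The strongest 3' UTR peak of a gene had a median log2 fold of 2.03 in the lowest decile, against 0.87 in the highest. Genes of the highest decile were also shorter, with a median span of 16194 nt against 36170 nt in the lowest. By decile of span, the share with a 3' UTR peak went from 71.6% (68.7 to 74.3%) at a median of 3400 nt to 93.1% (91.4 to 94.5%) at 235243 nt. The decline with level was seen in each region. From the lowest 3 to the highest 3 deciles of level, the median log2 fold went from 1.32 to 0.71 for 3' UTR peaks, from 1.17 to 0.62 for coding exon peaks and from 1.39 to 0.97 for 5' UTR peaks. The lower quartile of 3' UTR peaks went from 1.00 to 0.56. No listed 3' UTR peak had an unadjusted p above 0.0500, and at low counts only a large fold may pass such a limit. How far this sets the decline was not tested. All regions come from the same list, so their likeness adds no support.

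**Figure D4:**
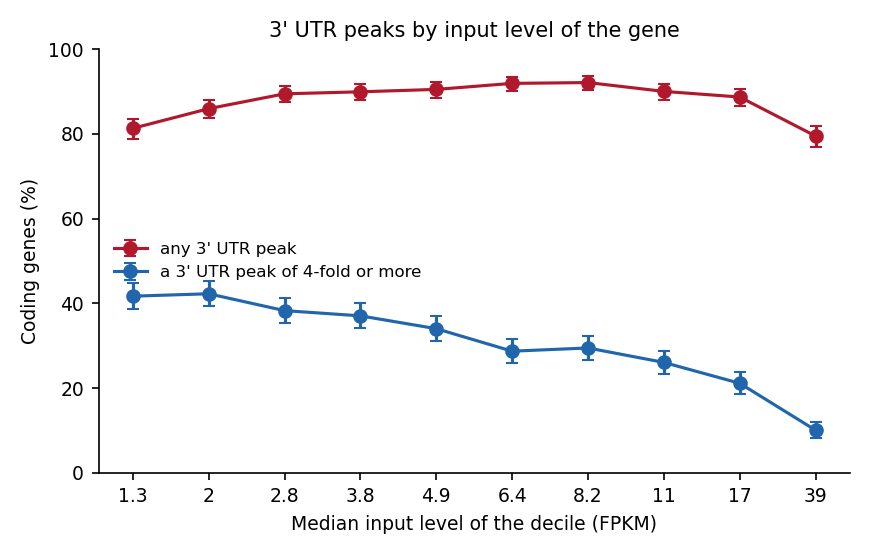
Share of coding genes at 1 FPKM or more (percent, y axis) with any 3' UTR peak and with one of 4-fold or more, by decile of input level (x axis, labelled with each decile's median FPKM). Bars are exact 95% intervals, which cover counting error only; the lower curve declines from 41.7% to 10.1%.

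The genes with the strongest 3' UTR peaks, among coding genes at 1 FPKM or more and peaks with an adjusted p under 1e-06 and no overlap with the other strand, were of mixed function. RRP1, which takes part in ribosome assembly, had a peak of 41.0-fold over 1000 nt on chromosome 21 from 43803543 to 43804542 (adjusted p 6.18e-278), 751 nt before the gene end. TCIM, a small regulator of Wnt signalling, had one of 36.3-fold over 1200 nt, with an adjusted p listed as 0. This peak, on chromosome 8 from 40153482 to 40154681, had its midpoint at 32.8% of the gene span. DAPK3, a kinase linked to cell death, had one of 32.6-fold over 1351 nt that ended on the gene's last base, on chromosome 19 from 3958453 to 3959803. ZNF182 and ZFP64, both zinc finger proteins, reached 42.0-fold and 31.7-fold, and the ZFP64 peak was 33003 nt wide from first to last base. MMP17, a membrane-bound metalloprotease, reached 37.9-fold in a peak under a decay transcript, PKP4, a junction protein, 31.8-fold, and MAML2, a coactivator of Notch, 30.5-fold. SULT1A4 (42.3-fold) and H4C8 (31.9-fold) complete the 10, but a sulfotransferase and a histone H4 gene with near-identical copies elsewhere leave the origin of their reads uncertain. Coordinates are counted from 1, on a genome build not given in the sources used here and so not named.

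The coding genes with the highest levels had weak 3' UTR peaks or none. AFP, a fetal serum protein made by many liver tumours, stood at 2380 FPKM and had 1 peak of 1.57-fold that ended 1 nt before the gene end. ALB, serum albumin, at 1202 FPKM, had 1 peak of 1.38-fold. AMBP, a precursor of plasma proteins, had 1 of 1.42-fold, and ACTB, cytoplasmic actin, had 3 peaks, 2 of 1.41-fold and 1 of 1.89-fold with an adjusted p of 0.0368. EEF1A1, a translation elongation factor with many processed copies, had a peak of 1.31-fold (adjusted p 2.48e-55) and a 100 nt peak of 1.57-fold with an adjusted p of only 0.0595. Both APOA1 (2.07-fold), the main protein of HDL, and FTH1 (1.73-fold), the ferritin heavy chain, had 1 peak that overlapped a peak on the other strand. FTL, the ferritin light chain, GAPDH and the histone gene H2BC12 had no 3' UTR peak but 1 peak each in another region.

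Gene classes were compared by how many members at 1 FPKM or more had any 3' UTR peak, to be read against 88.0% of coding genes, and one of 4-fold or more, to be read against 30.9%. Where the strict limit moves a share of any peak, it is to be read against 55.4%. A share with protein-coding transcripts alone is to be read against 76.5%. Levels differ between the classes and are given beside them, since strong peaks were fewer at high levels.

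Every one of the 10 genes of the m6A writer machinery had a 3' UTR peak, with an interval of 69.2 to 100% that holds the 88.0% of all coding genes. In 7 of them a peak reached 4-fold (70.0%, 34.8 to 93.3%, median level 8.61 FPKM, median log2 fold of the strongest peak 2.61). Under the strict limit 90.0% had a peak, with protein-coding transcripts alone 70.0%, and without overlaps on the other strand 90.0%. RBM15, an adaptor that brings the writer to its targets, had the highest, a single peak with a log2 fold of 3.63 over 7226 nt. It ended on the gene's last base, with its midpoint at 55.8% of the gene span. ZC3H13, a scaffold of the complex, followed with 3.50 (adjusted p 3.22e-104). WTAP, the regulatory subunit, had 1 peak of 3.04 that overlapped a peak on the other strand. METTL16, a separate methyltransferase known for its work on MAT2A mRNA, had 7 peaks, the strongest at 2.66 under a decay transcript. RBM15B stood at 2.62, PCIF1, the cap adenosine methyltransferase, at 2.59, METTL14, the RNA-binding partner of the catalytic subunit, at 2.35, and CBLL1, also called HAKAI, at 1.79. The single METTL14 peak and the strongest of 4 in CBLL1 were under decay transcripts. The lowest 2 were VIRMA, at 1.10 in 3 peaks under decay transcripts, and METTL3, the catalytic subunit, at 0.72 with an adjusted p of 0.0107. Both METTL3 peaks were under decay transcripts.

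The 14 readers and erasers also had a 3' UTR peak each, with an interval of 76.8 to 100% that holds 88.0% too. But 3 of them reached 4-fold (21.4%, 4.66 to 50.8%, median level 16.5 FPKM, median log2 fold of the strongest peak 0.95). Under the strict limit 42.9% of the 14 had a peak. The 3 at 4-fold were the cytoplasmic readers YTHDF3 (3.28), YTHDF2 (2.38) and YTHDF1 (2.29), and their strongest peaks spanned 34625, 27292 and 17608 nt, introns included. The nuclear reader YTHDC1 had the lowest fold, with a log2 of 0.43, and YTHDC2, a reader with a helicase domain, stood at 1.62. Of the IGF2BP readers, IGF2BP2 stood at 1.96 in 4 peaks, IGF2BP3 at 1.09 in 3 and IGF2BP1 at 0.54 in 4. HNRNPA2B1 (0.93), FMR1 (0.62), PRRC2A (0.61) and HNRNPC (0.49) are RNA-binding proteins reported to prefer methylated RNA or the structures it opens. The erasers FTO (0.97, adjusted p 0.0466) and ALKBH5 (0.77, adjusted p 3.44e-07) were below 2-fold, and this FTO peak lay 222774 nt before the gene end under a decay transcript. A further FTO peak, with a log2 fold of 0.90 (adjusted p 0.0212), was under a protein-coding transcript 44540 nt before the end.

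Short-lived and regulatory mRNAs often had strong 3' UTR peaks. Each of 31 immediate early or otherwise short-lived regulators had a peak (interval 88.8 to 100%), and 22 (71.0%, 52.0 to 85.8%) one of 4-fold or more, at a median level of 9.36 FPKM. Without overlaps on the other strand 83.9% had a peak. The interval of that share, 66.3 to 94.5%, held the 81.7% of all coding genes. JUN, a subunit of the transcription factor AP-1, had a single peak of 22.0-fold over 1200 nt on chromosome 1 from 58781141 to 58782340, which ended 350 nt before the gene end (adjusted p 2.13e-269). GADD45B, a stress-induced regulator of kinases, reached 14.9-fold. The lowest members were ID1, an inhibitor of helix-loop-helix factors at 168 FPKM, with 1.51-fold, and PPP1R15A, which directs dephosphorylation of eIF2alpha, with 1.45-fold and an adjusted p of 0.0291. Of 22 hepatocyte transcription factors, 22 had a peak, with an interval of 84.6 to 100% that holds the 88.0% of all coding genes. Without overlaps on the other strand 81.8% of them had one. In 16 (72.7%, 49.8 to 89.3%) one of 4-fold or more was listed, at a median of 14.3 FPKM and with a median log2 fold of the strongest peak of 2.70. FOXA1, a pioneer factor, had 3 peaks, of which the most upstream, of 3013 nt and under a decay transcript, reached 19.3-fold and the others 1.30- and 1.53-fold. NR2F1, a nuclear receptor, had 1 peak of 18.1-fold that ended 12 nt before the gene end. NR1H4, the bile acid receptor, was lowest at 1.40-fold.

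The zinc finger genes named ZNF were the largest class with this pattern. Of 304 such genes 290 (95.4%, 92.4 to 97.5%) had a 3' UTR peak and 231 (76.0%, 70.8 to 80.7%) one of 4-fold or more, at a median level of 2.61 FPKM. Under the strict limit 87.8% of these genes had a peak, with protein-coding transcripts alone 84.5%, and without overlaps on the other strand 87.2%. Their median log2 fold of the strongest peak was 2.60, above the 2.03 of the lowest decile of coding genes, whose median level was 1.32 FPKM. ZNF182 (42.0-fold) and ZNF205 (21.7-fold) were highest. ZNF217 (1.42-fold, with a peak of log2 2.68 on an overlap of strands set aside) and ZNF638 (1.40-fold) were lowest, and ZNF358, ZNF768 and ZNF395 had no 3' UTR peak. The ZNF genes share repeated domains and many lie in clusters of related copies.

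For genes of growth signalling, chromatin and transport, the interval of the share with a peak of 4-fold or more held the 30.9% of all coding genes. Of 39 Wnt and Hippo genes 37 had a 3' UTR peak (59.0% under the strict limit) and 15 (38.5%, 23.4 to 55.4%) one of 4-fold or more. TEAD4, a DNA-binding partner of YAP, had a single peak of 13.7-fold ending on the gene's last base. APC, a scaffold of the beta-catenin destruction complex, had 6 peaks. The strongest of them, of 12.1-fold over 1100 nt, was under a protein-coding transcript, and 4 of the 6 were under decay transcripts. TEAD3 (1.59-fold) and TCF7L1 (1.50-fold) were lowest, and DVL2 and AXIN1 had none. Of 41 chromatin regulators 37 had a peak and 17 (41.5%, 26.3 to 57.9%) one of 4-fold or more. Under the strict limit 70.7% (54.5 to 83.9%) had a peak, and with protein-coding transcripts alone 75.6%. ARID1B, a subunit of the BAF remodelling complex, had 10 peaks up to 15.3-fold, and KMT2B, a histone H3 lysine methyltransferase, 3 up to 9.86-fold, all 3 under decay transcripts. DNMT3B (1.56-fold) and HDAC1 (1.48-fold) were lowest, and HDAC3, SETD1A and HDAC5 had peaks in other regions alone. Of 195 solute carriers 179 had a peak and 67 (34.4%, 27.7 to 41.5%) one of 4-fold or more, led by SLC38A10 (19.6-fold) and SLC25A30 (11.9-fold). Under the strict limit 64.1% (56.9 to 70.8%) had a peak, with protein-coding transcripts alone 78.5%, and without overlaps on the other strand 85.1%. SLC44A3 (1.43-fold) and SLC39A6 (1.41-fold, adjusted p 0.0634) were lowest, and SLC25A5, SLC25A1 and SLC4A2 had none.

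Factors that act on 3' UTRs had shares with a peak of 4-fold or more near that of all coding genes. Of 38 genes of mRNA decay through the 3' UTR, 38 had a peak (63.2% under the strict limit). The interval of the share with any peak, 90.7 to 100%, lay above the 88.0% of all coding genes. That of the strict share, 46.0 to 78.2%, held the 55.4% of all coding genes. A fold of 4 or more was reached in 10 (26.3%, 13.4 to 43.1%), at a median level of 10.0 FPKM. ZFP36L2, which binds AU-rich elements, was highest with 13.5-fold over 1250 nt, and TIAL1, also a binder of U-rich elements, followed with 6.38-fold. EDC4, a decapping scaffold, had 1.51-fold in a peak that ran 179 nt past the gene end. Of 20 genes of cleavage and polyadenylation 19 had a peak (50.0% under the strict limit) and 5 (25.0%, 8.66 to 49.1%) one of 4-fold or more. CLP1 (8.68-fold) and WDR33 (7.64-fold), which helps to read the poly(A) signal, were highest, NUDT21 (1.58-fold) and CPSF1 (1.54-fold) lowest, and CPSF3, the endonuclease, had none. The WDR33 value leaves out its peaks on an overlap of strands, which reached log2 4.10.

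Abundant housekeeping and secretory mRNAs had fewer or weaker 3' UTR peaks. Of 79 cytosolic ribosomal protein genes (median 64.4 FPKM) 63 (79.7%, 69.2 to 88.0%) had one and 3 reached 4-fold, with 16.5% under the strict limit. With protein-coding transcripts alone 62.0% had a peak. RPS29 (11.2-fold) and RPS24 (9.29-fold) were highest, in peaks 5775 and 1779 nt before the gene end. RPLP2 had 1.23-fold, and RPLP0, RPLP1 and RPS15 had none. These genes have many processed copies, which can take or lend reads. Of 69 nuclear genes of oxidative phosphorylation (15.5 FPKM) 44 (63.8%, 51 to 75%) had a 3' UTR peak and 4 reached 4-fold. With an adjusted p under 0.001 the share was 40.6%, and under the strict limit 13.0%. The highest, SDHD at 14.8-fold and NDUFA9 at 5.94-fold, were narrow peaks of 100 and 150 nt with adjusted p-values of 0.0101 and 0.00630. COX5A (1.40-fold) and NDUFB1 (1.36-fold) were lowest, and ATP5F1B, COX8A and NDUFB7 had no peak in any region. Of 31 proteasome genes (29.5 FPKM) 25 had a 3' UTR peak (19.4% under the strict limit, 58.1% with protein-coding transcripts alone). A fold of 4 or more was reached in 2, namely PSMA5 (116-fold, in a 200 nt peak with an adjusted p of only 0.00133) and PSMC1 (6.11-fold). PSMD3 (1.42-fold) and PSMC2 (1.32-fold) were lowest, and PSMB3, PSMB4 and PSMB6 had none.

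Of 35 plasma protein genes of the hepatocyte (76.6 FPKM) 27 (77.1%) had a 3' UTR peak, 20% under the strict limit, and 3 reached 4-fold. PLG, plasminogen, had 36.1-fold with an adjusted p of 0.000665, and APOB, the protein of LDL, had 6 peaks up to 5.16-fold, of which 4 were under decay transcripts. TTR, transthyretin, had 1.36-fold, and APOA2, RBP4 and AHSG had none. Of 38 genes of cholesterol and fatty acid synthesis (27.9 FPKM) 38 had a 3' UTR peak (39.5% under the strict limit), but 5 (13.2%, 4.41 to 28.1%) reached 4-fold. The share with any peak was 84.2% without overlaps on the other strand and 89.5% with protein-coding transcripts alone. MSMO1 (7.93-fold, at 95.4 FPKM) and NSDHL (7.74-fold), which act in succession on the C4 methyl groups of sterols, were highest. SCD, the stearoyl-CoA desaturase, at 439 FPKM, had 5 peaks with log2 folds between 0.31 and 0.44, and EBP, a sterol isomerase, 1 of 1.34-fold. Of 17 glycolysis genes (18.8 FPKM) 14 had a peak (82.4%, 56.6 to 96.2%, and 17.6% under the strict limit). A peak of 4-fold or more was listed in 5 (29.4%, 10.3 to 56.0%). Both intervals hold the shares of all coding genes. The glucose transporter gene SLC2A2 (6.50-fold, 100 nt, adjusted p 0.00556) and PFKFB3 (5.68-fold) were highest, and PGAM1 (1.43-fold) and ENO1 (1.27-fold) lowest. GAPDH, TPI1 and ALDOA had none. Of 30 cell cycle genes (16.8 FPKM) 22 (73.3%, 54.1 to 87.7%) had a peak, 40.0% under the strict limit, and 5 (16.7%, 5.64 to 34.7%) reached 4-fold. E2F3 (8.76-fold) and MKI67 (6.77-fold) were highest, RB1 (1.48-fold) was among the lowest, and MCM7, CDC20 and AURKB had none.

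Of 59 replication-dependent histone genes (100.4 FPKM, median span 511 nt) 29 (49.2%, 35.9 to 62.5%) had a 3' UTR peak, 15.3% under the strict limit, and 6 reached 4-fold. Their mRNAs are known to end in a stem-loop in place of a poly(A) tail and have very short 3' UTRs. H4C8 (31.9-fold) and H2AC14 (18.1-fold) were highest, H2AC12 (1.37-fold) and H3C7 (1.32-fold) lowest, and H2BC12, H3C2 and H4C2 had none. The H2AC14 peak of 475 nt had its midpoint at 50% of the gene span and ended on the last base, so it covered nearly the whole gene. The H3C7 peak of 375 nt had its midpoint at 56.9% and ended 25 nt before the gene end. Such folds are not those of a 3' UTR alone. The near-identical sequences of these genes leave single values uncertain. Of 12 mitochondrially encoded mRNAs none had a 3' UTR peak and 6 had a coding exon peak. None of the 8 peaks listed on the mitochondrial chromosome had the 3' UTR as its region. The count of 0 may be set by the annotation, which was not tested, and nothing is read from it. MT-ND1, MT-ND4 and MT-CO2, at 11.6, 5.57 and 5.07 FPKM, were the most abundant.

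**Figure D5:**
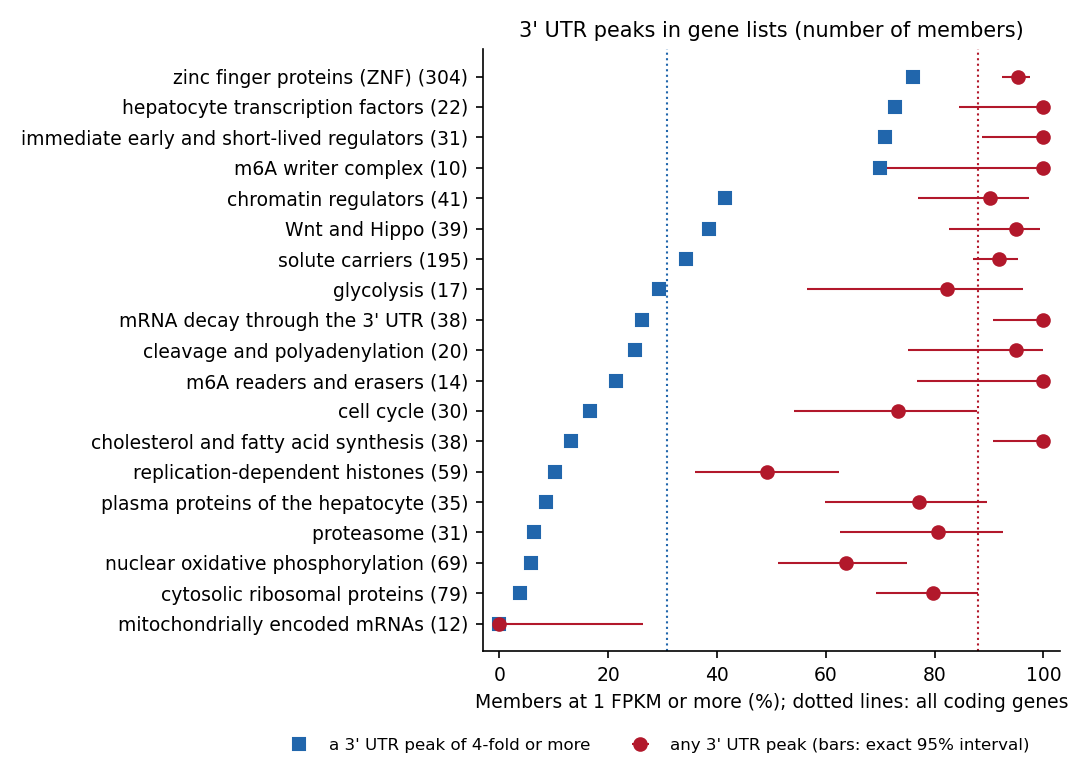
For each gene class (number of members at 1 FPKM or more in brackets), the percent of members (x axis) with any 3' UTR peak (circles, with exact 95% intervals for counting error) and with one of 4-fold or more (squares). Dotted lines give the same shares over all coding genes, 88.0% and 30.9%. The ZNF, hepatocyte transcription factor, immediate early and writer classes have squares at 70% or more. The 0% of the mitochondrially encoded class may be set by the annotation.

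By chromosome, 3' UTR peaks made up between 43.7% (chromosome 21) and 52.5% (chromosome 3) of the peaks of an autosome or the X, with none among 8 mitochondrial and 2 Y-chromosome peaks. Of the 3' UTR peaks 2564 (10.5%) overlapped a peak of the opposite strand, and in 55.3% of these the partner was a 3' UTR peak too. Peaks with such an overlap had a median log2 fold of 1.25 and a median width of 736 nt, those without one 1.04 and 500 nt.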

How the data were processed

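Peaks and levels came from 1 IP and 1 input library of untreated Huh-7 cells. Per the file headers, the authors' peak list holds for each peak the log2 of its IP to input fold, a p-value with its adjusted form, a position, a length in nt, a gene, a region and a transcript class. Per the file headers, the deposited gene table gives the input level in FPKM and the gene span. The tools named in the submitters' processing notes are HISAT2, StringTie, HOMER, edgeR, fastp and FastQC, with no role stated. Settings, peak caller, library scaling and build were not given in the sources used here. Among 3' UTR peaks the highest unadjusted p was 0.0500 and the highest adjusted p 0.0635, with 4.70% at an adjusted p of at least 0.05. The authors' rule for entry to the list is not known.

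In 1532 of the 3' UTR peaks the listed start lay 1 nt before the gene start and in 0 on it, so starts were read as counted from 0. Printed starts are the listed start plus 1 and widths the listed length minus 1. Peaks were joined to genes by identifier. The gene class came from RefSeq by symbol, synonym or identifier, for 80.7% of 25105 genes. Shares have exact (Clopper-Pearson) 95% intervals, for counting error only. A difference between peak classes is a description with no test. Overlap on the other strand means at least 1 nt. Alternatives were stricter p and fold limits, other level minimums, peaks without opposite-strand overlap, peaks of 2000 nt or less and, chosen after seeing the data, widths on the 25 nt step and protein-coding transcripts alone.

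The genes named, among those at 1 FPKM or more and with opposite-strand overlaps set aside, are the 10 coding genes with the strongest peak of adjusted p under 1e-06, the 10 with the most peaks, the 10 coding genes of highest level, for each of 19 lists the 2 members with the highest and the 2 with the lowest strongest peak and up to 3 without a peak, and all writers, readers and erasers. A few genes that this rule names are left out of the text. Within lists the named peak has no limit on p. The members and lists were chosen with earlier results of these data known. The position, width and overlap code was tested on 2000 simulated peaks, and 4 of 4 checks returned the values they were made with. Python 3.11.15, numpy 2.4.6, pandas 2.3.3, SciPy 1.17.1 and matplotlib 3.10.9 were used.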

Additional observations from a re-analysis of the deposited data

How the results depend on the processing

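No paired analysis was possible because there is 1 library of each kind, and no replicate could be left out. With peaks of adjusted p under 0.001 alone, 3' UTR peaks were 54.2% of peaks, 71.2% of them also reached 2-fold, the median log2 fold was 1.55, the median width 982 nt, the share in the last 10% of the span 56.4%, the share of expressed coding genes with a peak 70.9%, the median count per gene 1 and the log2 level difference, with minus without a peak, 0.47. The median share over the 19 gene lists was then 74.4% (91.8% as reported), and the gap in median log2 fold to coding exon peaks 0.40. With 2-fold also required these became 54.1%, 2.02, 1200 nt, 55.6%, 55.4%, 1, −0.45, 42.9% and 0.20 (the share past both limits is then fixed). Without peaks that overlap the other strand, they were 50.1% of peaks, 32.8% past both limits, log2 1.04, 500 nt and 81.7% of expressed coding genes. Without peaks covered by 50% or more, 33.7% were past both limits and 56.4% in the last 10%. The median width was 400 nt among peaks of 2000 nt or less. Taking the downstream end in place of the midpoint put 65.4% in the last 10%. At 5 FPKM 88.6% of coding genes had a peak and the log2 level difference was −0.47, and with no minimum 74.8% had one. Widths on the 25 nt step gave a median of 375 nt and a gap to coding exons of 0.017. Protein-coding transcripts alone gave log2 1.08, 450 nt, 65.3% in the last 10%, 76.5% of expressed coding genes and a median of 75.6% over lists. The cause of these moves was not tested. List shares moved beyond their counting interval in 15 of 19 lists with both limits, 7 with the p limit, 6 with protein-coding transcripts alone, 5 without the overlaps and 1 at 5 FPKM, each of them lower. Depth is unknown, so a gene without a peak may be one in which none was detectable. The sign of the log2 level difference depends on the peak limit and the level minimum.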
